A study of Mus musculus with 11 samples.

Results

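Genes of the interferon response and of antigen presentation were compared between mice that lack Tamm-Horsfall protein and wild-type mice, in S3 proximal tubules, the last stretch of that tubule in the kidney. The gene panel holds 45 named genes, listed by their known roles, with earlier results of these arrays known, and 40 of them could be measured among the 22180 genes that had a probe set of their own. A probe set is the group of oligonucleotides that reports 1 transcript on the array. Where a gene had several, the brightest over all 11 arrays was used. The 40 measured genes comprise 20 interferon-induced genes, 10 interferon receptors and transcription factors, 6 genes of MHC class I presentation and 4 of MHC class II presentation. Oas1a, Gbp2, H2-D1 and Cd74 have probe sets that are also annotated to a second gene, and Ifi44 was not listed in the annotation used here, so no value is given for these 5.

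Interferons are secreted proteins that cells release on sensing viral or misplaced nucleic acid. Type I interferons bind the receptor chains Ifnar1 and Ifnar2 and act through a transcription factor complex that includes Stat2 and Irf9. That complex binds the interferon-stimulated response element in the promoters of antiviral genes. Interferon gamma binds Ifngr1 and Ifngr2, acts on gamma-activated sites in promoters, and induces the regulators of antigen presentation. MHC class I molecules, on nearly all cells, present peptides from inside the cell, while MHC class II molecules present engulfed protein and are found mainly on dendritic cells, macrophages and B cells. Injured or inflamed kidney tubule cells can display class II as well.

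All arrays came from mice of the 129/SvEv strain, 6 of genotype WT and 5 of genotype THP -/-. The labels name neither a treatment nor an age, and do not say how the tubules were isolated. THP is Tamm-Horsfall protein, or uromodulin, encoded by Umod and secreted by the thick ascending limb of the same nephrons. Batch 1, as the labels name it, held 5 wild-type and 3 knockout arrays (replicates 1 to 3), and batch 2 held wild-type replicate 6 and knockout replicates 4 and 5. The study's title concerns uromodulin, oxidative stress and the TRPM2 channel, and the comparison asks how S3 transcripts differ without uromodulin. The labels do not say that arrays came from separate mice, so p-values measure only the spread between these arrays.

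Values are log2 signals, and differences are on the same scale, as knockout minus wild type with the batch as a term of the model. Array medians lay between 3.85 and 4.01, and arrays correlated at 0.901 to 0.955. The targeted gene Umod read 5.80, 5.27, 6.20, 5.53, 5.27 and 6.74 in wild-type replicates 1 to 6 and 3.68, 4.26, 4.67, 4.55 and 5.27 in knockout replicates 1 to 5, where replicate 5 equalled the lowest wild-type value. Its difference was -1.52 ± 0.24 (SE; limma adjusted p = 0.281), and whether the probe set lies in the deleted part is not known. Markers of the proximal tubule were present, with all 8 genes of the list for any segment above the median of every array. S3 markers had a median difference of 0.45, and S1 and S2 markers, from the earlier parts of the tubule, of -0.44. The S3 gene Acox2, a peroxisomal oxidase, did not overlap between genotypes, with 4.29 to 5.58 in wild type and 5.68 to 7.11 in knockout (1.29 ± 0.31; limma adjusted p = 0.543). Of all genes, 0.627% did not overlap. Knockout replicate 4 carried more thick ascending limb signal than any other array, with its 7 markers on average 1.64 above their wild-type means, and more collecting duct signal, 1.33 above. In bulk RNA of this kind, fewer cells of a type and less RNA per cell cannot be told apart.

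Promoter sequences are shown because interferon-induced genes and class II genes are controlled through different elements. RefSeq windows (GRCm38.p6) from 250 bases before to 50 after the transcription start were held for 35 of the 45 genes. The core of the interferon-stimulated response element, searched on both strands as GAAANNGAAA, occurred in 11 of 18 interferon-induced genes with a window (61.1%), against 3.99% of all 27025 genes with a window. It occurred in Stat2 alone among the 10 receptors and factors, in B2m alone among 5 class I genes, and in neither of the 2 class II genes with a window. Neighbouring matches among the 3 response element matches of Isg15 overlap. In 1 window a response element overlapped a gamma-activated site. The gamma-activated site, searched as TTCNNNGAA, matched 5 of those 18 interferon-induced genes, 4 of the 10 receptors and factors and none of the class I or class II genes, against 9.55% of all genes. The core of the Y box, TGATTGG, which belongs to the promoter module through which class II genes are switched on by Ciita, matched both class II genes, 3 of 5 class I genes (H2-D1, H2-K1 and Tap1) and 3 of the 10 receptors and factors. It matched 0 of 18 interferon-induced genes and 9.0% of all genes. A match is a string of letters and not a measured binding site.

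The following stretches of 60 bases are printed 5′ to 3′ along the gene, with the matches in capitals, to show the response element in genes of 3 roles and the Y box in class II genes. They lie at chr4:156200856-156200915 on the minus strand (Isg15), chr5:120777700-120777759 on the minus strand (Oas3), chr10:128270251-128270310 on the plus strand (Stat2), chr2:122147523-122147582 on the plus strand (B2m), chr17:34287841-34287900 on the minus strand (H2-Aa) and chr17:34305779-34305838 on the plus strand (H2-Eb1). The Stat2 match reads on the reverse strand.
Isg15: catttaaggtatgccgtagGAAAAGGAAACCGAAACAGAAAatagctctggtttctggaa
Oas3: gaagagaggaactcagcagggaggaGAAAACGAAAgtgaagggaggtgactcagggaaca
Stat2: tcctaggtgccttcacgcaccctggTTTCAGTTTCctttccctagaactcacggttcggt
B2m: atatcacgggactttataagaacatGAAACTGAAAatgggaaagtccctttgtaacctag
H2-Aa: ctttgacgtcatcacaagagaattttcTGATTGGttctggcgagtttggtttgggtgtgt
H2-Eb1: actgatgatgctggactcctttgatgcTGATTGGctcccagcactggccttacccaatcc

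No member passed the test between genotypes. The limma adjusted p of the 40 genes, with Benjamini-Hochberg over all 41345 probe sets, ran from 0.732 to 0.997, and 0.0% of all probe sets passed 0.05. The members' median difference was 0.03, with 21 genes higher and 19 lower in knockout, beside a median of 0.01 over all genes, of which 53.4% were higher. No member differed by more than 1 on the log2 scale. At an unadjusted p under 0.05 there were 5 of the 40 (12.5%), beside 5.64% of all genes. Of the 40 members, 1 was at that p and higher in knockout (Stat2), beside 3.64% of all genes. At that p and lower were 4 of the 40 (Mx2, Oas3, Ciita and H2-Eb1), beside 2.0% of all genes. The count of 5 in either direction fell to 3 without wild-type replicate 3, wild-type replicate 6, knockout replicate 3 or knockout replicate 4. It was 2 within batch 1 alone, and reached 7 under 6 of the other settings. In 0 of the 40 did the groups stand apart without overlap, beside 0.627% of all genes.

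**Figure D1:**
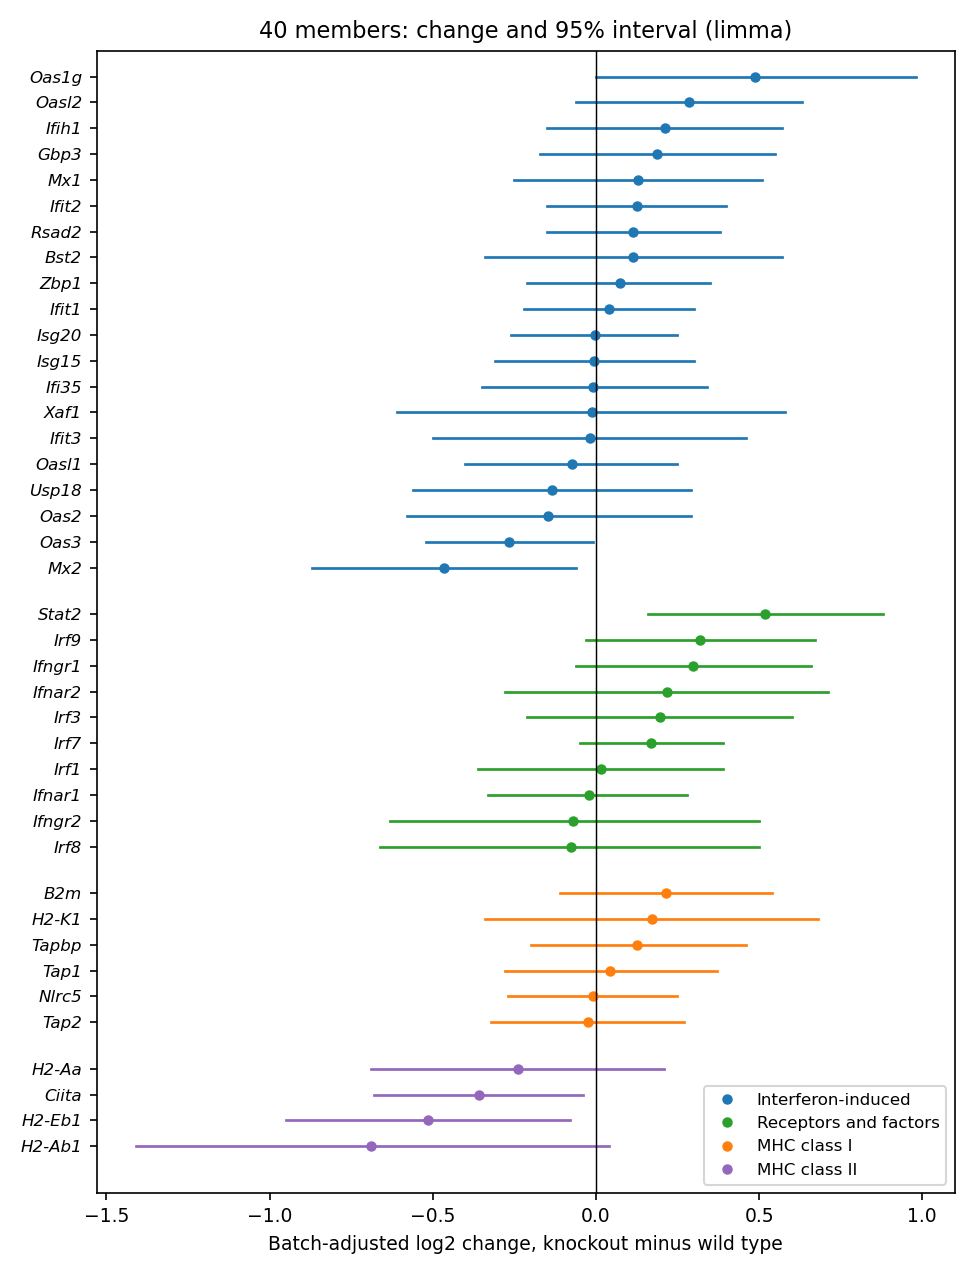
Difference between knockout and wild type (log2, batch-adjusted) for the 40 measured genes, grouped by role and ordered by size, with points for the estimate and bars for the 95% interval of the limma fit. Interferon-induced genes lie on both sides of 0, with a median of 0.02, and the 4 MHC class II genes lie below it, from -0.69 to -0.24.

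Among the 10 interferon receptors and transcription factors, 7 were higher and 3 lower in knockout, with a median difference of 0.18 (0.10 within batch 1 and 0.22 within batch 2). Stat2 (Entrez 20847), the transcription factor specific to type I and type III interferon signalling, had the smallest p of all members. Its wild-type arrays ran from 3.33 through a median of 3.675 to 4.03, and its knockout arrays read 3.95, 4.41, 4.50, 3.99 and 3.92 for replicates 1 to 5. All 5 knockout arrays lay above the wild-type median, and 2 lay above every wild-type array, so the groups overlapped through wild-type replicate 2. The difference was 0.52 ± 0.16 (SE), with a 95% interval from 0.16 to 0.88 and a limma adjusted p of 0.732. It was 0.64 within batch 1 and 0.19 within batch 2. Stat2 was itself dim, under the array's median in 7 of the 11 arrays, and it dropped out when dim probe sets were left out.

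Irf9 (Entrez 16391), the DNA-binding partner of Stat2, ran from 4.27 through 4.715 to 4.80 in wild type and read 4.80, 4.80, 4.91, 5.42 and 4.88 in knockout. No knockout array lay below the wild-type maximum, which knockout replicates 1 and 2 equalled. The difference was 0.32 ± 0.16 (SE; limma adjusted p = 0.823), with 0.12 within batch 1, which is also the value without wild-type replicate 6, and 0.88 within batch 2. It was 0.22 without knockout replicate 4, the array with the most thick ascending limb signal, and 5 of the 11 arrays shared the value 4.80. Irf7 (Entrez 54123), which amplifies type I interferon production and is itself induced by it, ran from 3.70 through 3.94 to 3.99 in wild type and read 4.19, 4.07, 3.99, 4.06 and 4.13 in knockout. Here 4 of 5 knockout arrays lay above every wild-type array and the other equalled the highest. The size was small, at 0.17 ± 0.10 (SE), with a limma adjusted p of 0.83, and 0.19 within batch 1 and 0.10 within batch 2. In all, 4 of the 11 arrays shared the value 3.99.

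The receptor chains gave no common direction. Ifngr1 (Entrez 15979), the ligand-binding chain of the interferon gamma receptor, ran from 4.72 through 5.15 to 5.33 in wild type and read 5.11, 5.32, 5.75, 5.45 and 5.18 in knockout, a difference of 0.30 ± 0.16 (SE; limma adjusted p = 0.826), which was 0.17 without knockout replicate 3. Its partner Ifngr2 was at -0.07 ± 0.26 and turned to 0.24 without knockout replicate 2. Of the type I receptor, Ifnar1 was at -0.02 ± 0.14 and Ifnar2 at 0.22 ± 0.23. Ifnar2 was at 0.08 without wild-type replicate 6, 0.09 without knockout replicate 3, 0.11 without wild-type replicate 5 and 0.14 without knockout replicate 5. Irf3, which switches on interferon genes after nucleic acid sensing, was at 0.20 ± 0.18, with 5 of 5 knockout arrays above the wild-type median but none above the wild-type maximum. Irf1, induced by interferon gamma, was at 0.02 ± 0.17, and Irf8, a factor of myeloid cells, at -0.08 ± 0.26.

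The 20 interferon-induced genes divided evenly, with 10 higher and 10 lower in knockout. Their median difference was 0.02 (-0.03 within batch 1 and 0.15 within batch 2), beside 0.01 over all genes. In 13 of the 20 (65.0%) the sign within batch 1 was opposite to that within batch 2, beside 44.3% of all genes. Isg15 (Entrez 100038882), the gene with 3 response element matches above, encodes a ubiquitin-like protein attached to other proteins during an interferon response. It ran from 2.99 through 3.37 to 3.66 in wild type. Its knockout arrays read 3.36, 3.42, 3.10, 3.60 and 3.36, all inside the wild-type range. The 95% interval of its difference ran from -0.31 to 0.30. Isg15 lay below the median of every array, so its signal may have been near background and a small change could have gone unseen.

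Mx2 (Entrez 17858), a dynamin-like antiviral GTPase, ran from 2.93 through 3.45 to 3.82 in wild type and read 3.15, 2.91, 2.82, 2.68 and 2.77 in knockout. Of the knockout arrays 4 lay below every wild-type array, and the other lay above the wild-type replicates 1 and 4. The difference was -0.46 ± 0.18 (SE), with a 95% interval from -0.87 to -0.06 and a limma adjusted p of 0.774, and -0.38 within batch 1 and -0.71 within batch 2. Its signal sat under the median of each of the 11 arrays, and no fold is given because such a dim signal could be background. Its relative Mx1 lay under the lower quartile in all 11 arrays and was at 0.13 ± 0.17.

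The oligoadenylate synthetases, which make a second messenger that activates RNA decay, differed among themselves. Oas3 (Entrez 246727) ran from 4.47 through 4.58 to 4.86 in wild type and read 4.47, 4.34, 4.47, 4.06 and 4.29 in knockout. All 5 knockout arrays lay below the wild-type median, and 3 below every wild-type array. The difference was -0.26 ± 0.12 (SE; limma adjusted p = 0.809), with -0.21 within batch 1 and -0.42 within batch 2. Oas1g (Entrez 23960) ran from 2.20 through 2.415 to 3.01 in wild type and read 2.78, 3.55, 2.39, 2.95 and 3.14 in knockout. This was a difference of 0.49 ± 0.22 (SE; limma adjusted p = 0.813) between dim signals, which was 0.29 without knockout replicate 2. Oas1g is nearly identical to Oas1a, so the signals of these genes may not be separable. Oas2 was at -0.15 ± 0.20, Oasl1 at -0.07 ± 0.15 and Oasl2 at 0.29 ± 0.15.

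The other interferon-induced genes lay between -0.13 and 0.21. The IFIT proteins, which bind foreign RNA, were at 0.04 ± 0.12 (Ifit1), 0.12 ± 0.13 (Ifit2) and -0.02 ± 0.22 (Ifit3). Rsad2, or viperin, was at 0.11 ± 0.12, and the RNA sensor Ifih1 at 0.21 ± 0.16. Usp18, which removes Isg15 from proteins and damps the type I receptor, was at -0.13 ± 0.19, with all 5 knockout arrays below the wild-type median yet inside the wild-type range. Gbp3, a guanylate-binding protein, was at 0.19 ± 0.16, with 4 knockout arrays above the highest wild-type array and 1 below the lowest. Bst2, or tetherin, which holds budding virus at the cell surface, was at 0.11 ± 0.21. Without knockout replicate 4 it was at -0.04. Zbp1, a sensor of Z-form nucleic acid, was at 0.07 ± 0.13, while Xaf1, Ifi35 and the exonuclease gene Isg20 lay within 0.02 of 0.

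Splitting the measured members with a promoter window by the response element gave 11 genes with a match, of which 8 were higher and 3 lower in knockout, with a median of 0.11. The 20 without a match had 11 higher and 9 lower, with a median of 0.03. The range was -0.26 to 0.52 with the element, from Oas3 to Stat2, and -0.51 to 0.32 without it. These ranges overlapped, and no test of the split was made.

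MHC class I presentation genes had a median difference of 0.09 (0.05 within batch 1 and 0.22 within batch 2). Higher in knockout were 4 of 6, beside 53.4% of all genes. At an unadjusted limma p under 0.05 there were 0 of 6, beside 5.64% of all genes, and so few genes make this count uninformative. B2m (Entrez 12010), the light chain shared by all class I molecules, ran from 10.17 through 10.7 to 10.77 in wild type and read 10.87, 10.78, 11.09, 10.65 and 10.52 in knockout. The 3 knockout arrays of batch 1 were above every wild-type array, and those of batch 2 were inside the wild-type range. The difference was 0.21 ± 0.15 (SE; limma adjusted p = 0.851), with 0.34 within batch 1 and -0.14 within batch 2.

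H2-K1 (Entrez 14972), a class I heavy chain, ran from 6.10 through 6.245 to 6.55 in wild type. Its knockout arrays read 6.02, 7.19, 5.97, 6.98 and 6.33, so 2 lay above every wild-type array and 2 below. The difference of 0.17 ± 0.23 (SE; limma adjusted p = 0.923) turned to -0.09 without knockout replicate 2. Class I heavy chains are close in sequence, and part of the H2-K1 signal may come from its relatives. Tapbp, or tapasin, which holds class I molecules at the peptide transporter, ran from 6.42 through 6.785 to 7.25 in wild type and read 6.90, 6.87, 6.81, 7.25 and 7.03 in knockout, at 0.13 ± 0.15 (SE; limma adjusted p = 0.907). The transporter subunits were at 0.04 ± 0.15 (Tap1) and -0.02 ± 0.13 (Tap2), and Nlrc5, the transactivator of class I genes, was at -0.01 ± 0.12.

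MHC class II genes stood lower in knockout in all 4 cases, with a median difference of -0.44, and none passed the test (limma adjusted p from 0.769 to 0.872). H2-Ab1 (Entrez 14961), the beta chain of the I-A molecule, ran from 8.40 through 9.49 to 10.06 in wild type and read 8.03, 9.42, 8.88, 8.69 and 8.80 in knockout. All 5 knockout arrays lay below the wild-type median, but only replicate 1 lay below the lowest wild-type array, replicate 4. The difference was -0.69 ± 0.33 (SE), or 1.61-fold lower, with a 95% interval from -1.41 to 0.04 and a limma adjusted p of 0.82. It was -0.62 within batch 1 and -0.87 within batch 2, and -0.45 without knockout replicate 1.

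H2-Eb1 (Entrez 14969), the beta chain of the I-E molecule, ran from 5.91 through 6.475 to 6.96 in wild type and read 5.47, 6.44, 5.71, 6.35 and 6.18 in knockout. Again 5 of 5 knockout arrays lay below the wild-type median, and 2 below every wild-type array. The difference was -0.51 ± 0.20 (SE), or 1.43-fold lower, with a 95% interval from -0.95 to -0.08 and a limma adjusted p of 0.769. H2-Aa (Entrez 14960), the alpha chain that pairs with the H2-Ab1 product, ran from 5.21 through 5.665 to 6.27 in wild type and read 5.11, 5.96, 5.56, 5.63 and 5.32 in knockout. Its difference of -0.24 ± 0.20 (SE; limma adjusted p = 0.872) came to -0.04 within batch 1 and -0.79 within batch 2, where there is a single wild-type array.

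Ciita (Entrez 12265), the coactivator that controls class II transcription, ran from 4.51 through 4.62 to 5.04 in wild type and read 4.38, 4.54, 4.29, 3.97 and 4.54 in knockout. All 5 knockout arrays lay below the wild-type median, and 3 below every wild-type array. The difference was -0.36 ± 0.15 (SE), or 1.28-fold lower, with a 95% interval from -0.68 to -0.04 and a limma adjusted p of 0.774. It was -0.21 within batch 1 and -0.79 within batch 2. For Ciita and H2-Aa the larger difference in batch 2 is taken against wild-type replicate 6 alone, the highest wild-type array for both. For Ciita, knockout replicate 4 of batch 2 was also the lowest of all arrays, at 3.97. Without wild-type replicate 6 only batch 1 compares the genotypes, so the differences of -0.21 and -0.04 repeat those within batch 1.

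**Figure D2:**
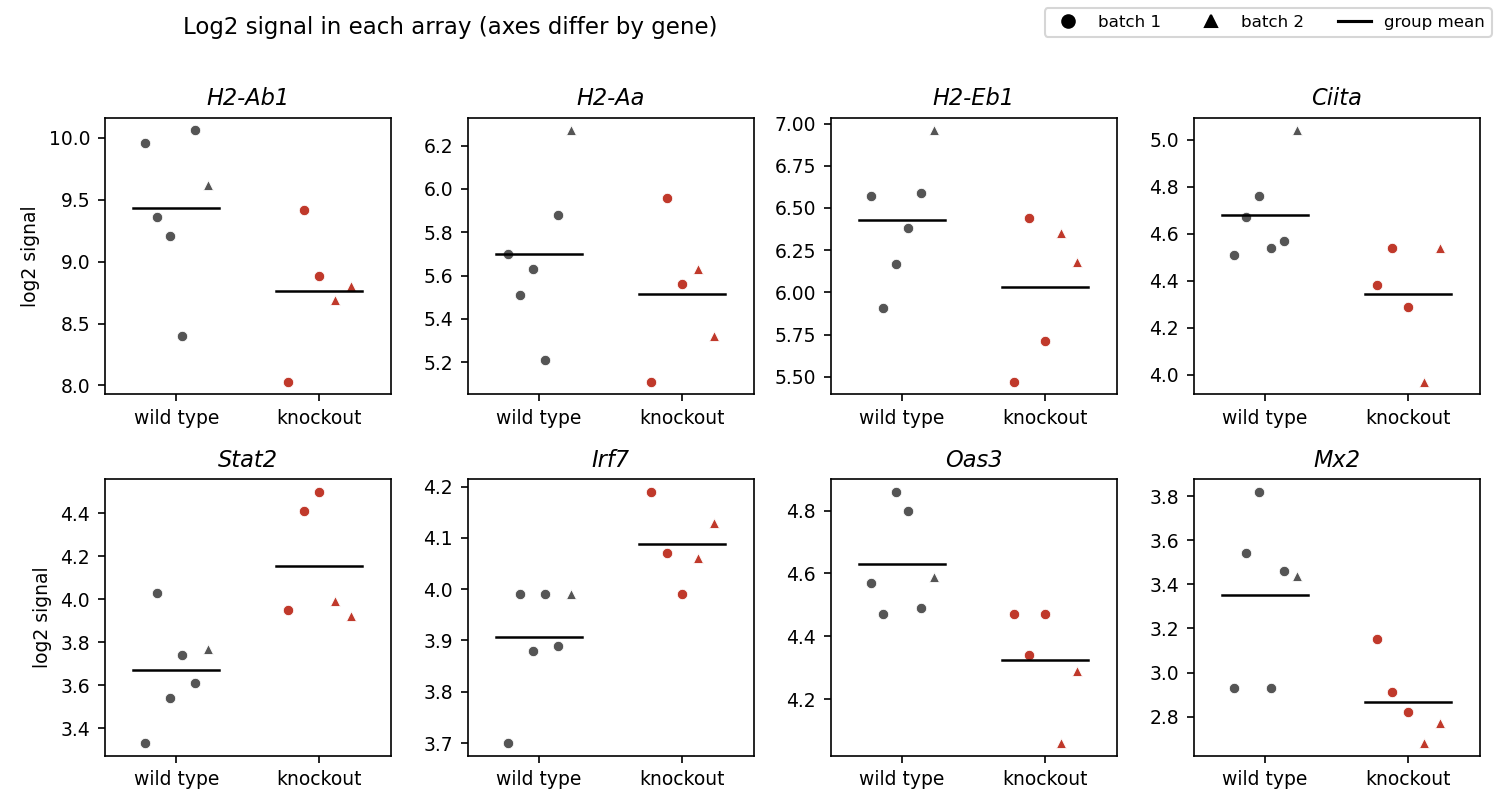
Log2 signal of 8 genes in each array, with wild type in grey, knockout in red, circles for batch 1, triangles for batch 2 and lines for group means; vertical axes differ between genes. In H2-Ab1, H2-Eb1, Ciita, Oas3 and Mx2 every knockout array lies below the wild-type median and in Stat2 and Irf7 above it, and the groups overlap or touch in all 8.

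Set against each other, the role groups differed in their medians: 0.02 for interferon-induced genes, 0.09 for class I and -0.44 for class II. The mean class II deviation from the wild-type mean of each gene was 0.12, -0.20, -0.12, -0.43, 0.21 and 0.41 in wild-type replicates 1 to 6 and -0.81, 0.03, -0.45, -0.40 and -0.35 in knockout replicates 1 to 5. Knockout replicates 2, 4 and 5 were therefore inside the wild-type range, and the other knockout arrays lay below it. Wild-type replicate 4 was lower than knockout replicates 2, 4 and 5. The same mean over interferon-induced genes ran from -0.15 to 0.11 in wild type and from -0.09 to 0.13 in knockout. Leaving out single arrays, the class II median ran from -0.58 to -0.33. The difference between the role groups was not tested, since the members were chosen as a set and with earlier results of these arrays known.

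**Figure D3:**
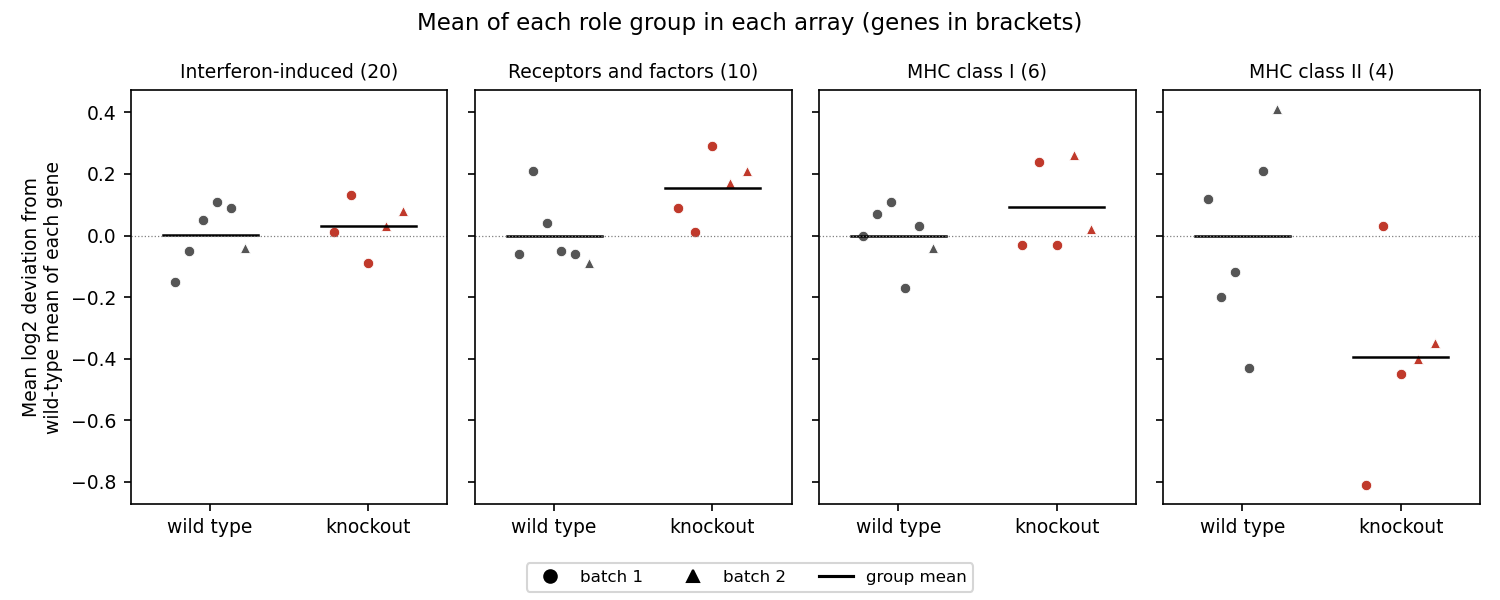
Mean over each role group of the log2 deviation from the wild-type mean of each gene, 1 point per array (circles batch 1, triangles batch 2), with lines for group means. Interferon-induced genes spread around 0 in both genotypes, from -0.15 to 0.13. For MHC class II 4 of 5 knockout arrays lie between -0.81 and -0.35, and the wild-type arrays run from -0.43 to 0.41, so the groups overlap.

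Because class II genes are expressed mainly by leukocytes, markers of those cells are given beside them. The 42 measured markers over the 5 leukocyte lists had a median difference of -0.02, with 18 higher, 24 lower and 0 past the adjusted threshold. Their mean ran from 4.08 to 4.32 in wild type and from 4.06 to 4.31 in knockout, and 13 of the 42 lay under the median in all 11 arrays, with none under the lower quartile in all 11. Ptprc, the pan-leukocyte phosphatase CD45, was under the median in all 11 arrays and at 0.02 ± 0.10, and Adgre1, the macrophage marker F4/80, at -0.03 ± 0.14. The macrophage growth factor receptor Csf1r was higher, at 0.58 ± 0.19 (SE; limma adjusted p = 0.735). In the macrophage list 10 of 15 were higher, with a median of 0.03. In the B cell list 4 of 5 were lower, with a median of -0.09 and a range from -0.16 to 0.44.

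Some dendritic and T cell genes were lower in knockout as well. Over all genes 53.4% were higher in knockout. In the dendritic cell list 6 of 8 were lower, with a median of -0.07, including Zbtb46 at -0.46 ± 0.16 and Cd209a at -0.52 ± 0.31, while Flt3 was at 0.35 ± 0.14. Cd209a read 8.89 to 10.57 over the arrays, while the other genes of the list lay between 3.12 and 4.88. Whether so bright a signal came from dendritic cells is not known, and it enters the means of the list. On the scale of mean deviation, knockout replicates 1 to 5 were at -0.09, 0.19, -0.31, -0.28 and -0.17 for the dendritic list, beside -0.81, 0.03, -0.45, -0.40 and -0.35 for class II. In both, replicate 2 was the highest knockout array and replicates 3 to 5 were below 0. Replicate 1 was the lowest for class II alone. Macrophage markers were also highest in replicate 2 among knockout arrays, at 0.23. In wild type the order differed between class II and the dendritic list. Wild-type replicate 4 was lowest for class II (-0.43) and highest for the dendritic list (0.14). Wild-type replicate 1 was at 0.12 for class II and lowest for the dendritic list (-0.26). The dendritic list's mean ran from 4.62 to 5.03 in wild type and from 4.57 to 5.08 in knockout. In the T and NK cell list 6 of 9 were lower, with a median of -0.08 and a range from -0.39 (Cd4) to 0.23 (Cd3d). Cd8a was at -0.34 ± 0.14 and Cd3e at -0.34 ± 0.16, while Cd3g was at 0.00 ± 0.11, and Cd4 and Cd8a lay under the median in all 11 arrays. The T and NK list's mean ran from 3.92 to 4.15 in wild type and from 3.67 to 4.02 in knockout, where replicates 1 to 5 deviated by 0.00, -0.07, -0.17, -0.35 and -0.17. None of these genes passed the test (limma adjusted p from 0.758 to 0.997). The endothelial marker Pecam1 was at 0.14 ± 0.14. The part of leukocyte content, and of the S3 against S1 and S2 markers given above, in the class II values was not tested.

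**Figure D4:**
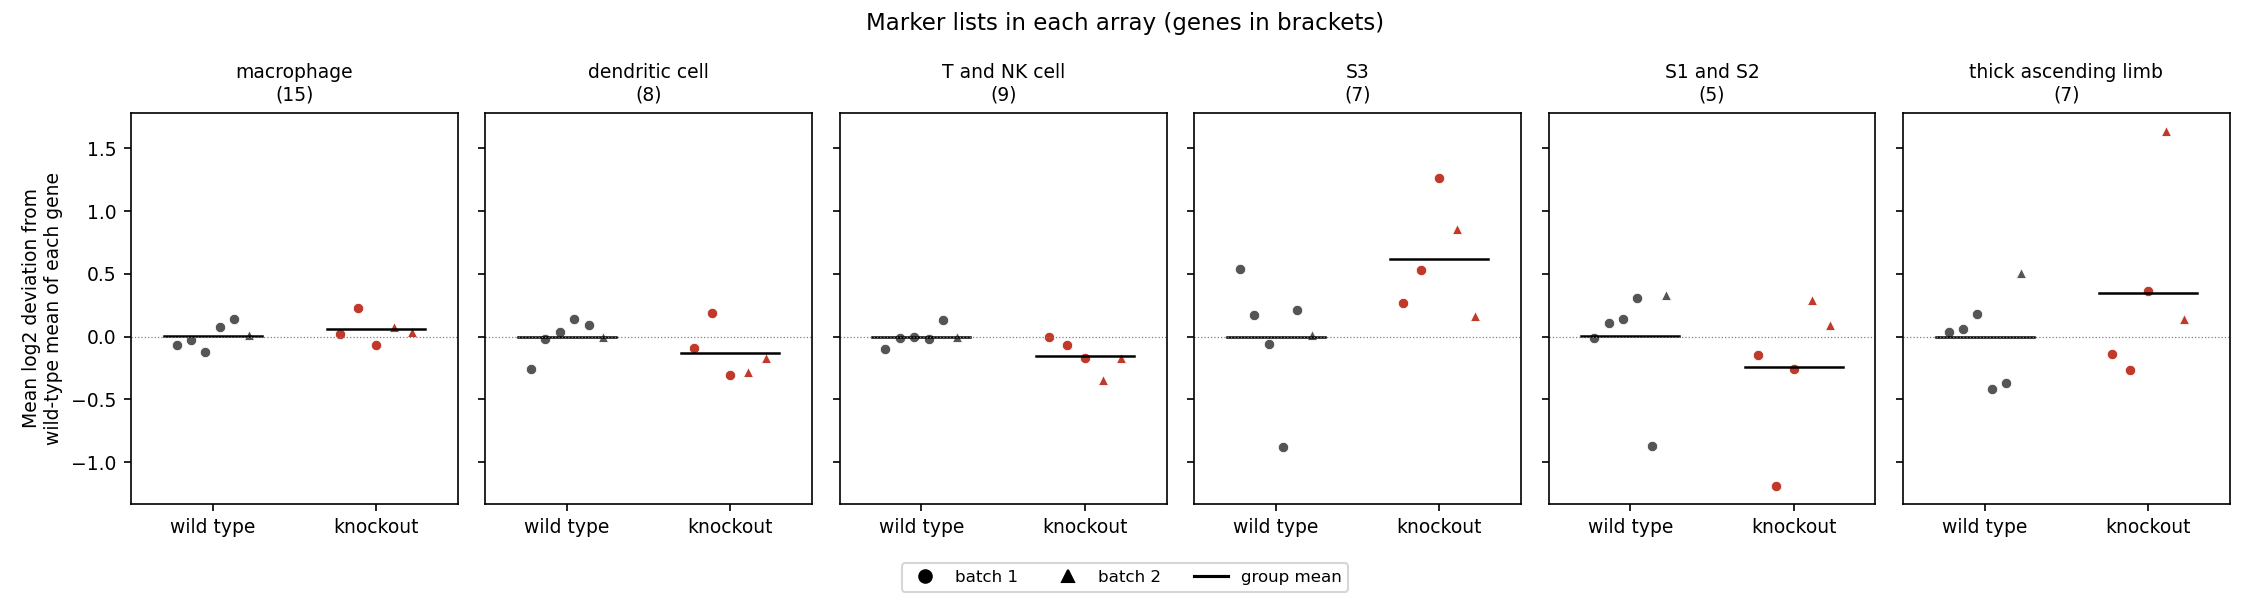
Mean log2 deviation from the wild-type mean of each gene for 6 marker lists, 1 point per array (circles batch 1, triangles batch 2), with lines for group means. Macrophage markers lie between -0.12 and 0.23, S3 markers reach 1.26 in knockout replicate 3, and thick ascending limb markers reach 1.64 in knockout replicate 4.

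Other genes of the same pathways were read from 3 fixed lists. Of 56 further interferon-induced genes 31 were higher and 25 lower, with a median of 0.02. In this list 2 (3.57%) had an unadjusted limma p under 0.05, beside 5.64% of all genes. The 4 with the smallest p were the helicase Helz2 at 0.51 ± 0.15, the ADP-ribosyltransferase Parp14 at -0.27 ± 0.11, the histone chaperone Daxx at 0.22 ± 0.10 and the antiviral membrane protein Ifitm2 at -0.54 ± 0.26. Of 31 further signalling and sensing genes 17 were higher and 14 lower, with a median of 0.03. Here 4 (12.9%) were at an unadjusted limma p under 0.05, beside the same 5.64% of all genes. These 4 were Irf2, which competes with Irf1 for its sites (-0.54 ± 0.20), the cytokine signalling inhibitor Socs3 (-0.45 ± 0.17), the RNA sensor Tlr7 (0.26 ± 0.11) and Ifng itself. Tlr7 lay under the lower quartile in all 11 arrays, so its signal could be background. Ifng was the only gene of the 3 lists whose groups did not overlap, beside 0.627% of all genes. It read 3.05 to 3.39 in wild type and 2.45 to 3.01 in knockout. The difference was -0.44 within batch 1 and -0.06 within batch 2. Ifng lay near the lower quartile of the arrays (2.85 to 3.03), so it could be background too.

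Of 36 further antigen presentation genes 24 were higher and 12 lower, with a median of 0.05. Of these, 3 (8.33%) were at an unadjusted limma p under 0.05, beside 5.64% of all genes. Rfxap, a subunit of the RFX complex that binds class II promoters beside Ciita, was at 0.42 ± 0.12, the direction opposite to the class II genes. H2-Q10, a secreted class I molecule, was at -0.60 ± 0.18, and the chaperone Calr at 0.35 ± 0.14. H2-DMb2, a chain of the class II peptide editor, was at -0.67 ± 0.33. The other measured class II chain genes of this list, named after their values were seen, were also below 0 and passed no test: H2-DMa at -0.28 ± 0.26, H2-DMb1 at -0.20 ± 0.16, H2-Oa at -0.19 ± 0.17, H2-Ea at -0.06 ± 0.19 and H2-Ob at -0.02 ± 0.15. H2-DMb1 and H2-Ea lay under the median in all 11 arrays and H2-Ob in 10, so their signals could be background. Within batch 2, H2-DMa and H2-Ob were at 0.00. No gene of the 3 lists passed the adjusted threshold, and their smallest limma adjusted p was 0.672.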

How the data were processed

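The deposited log2 values of 11 arrays were used as given. Per the submitters' processing notes they involved Partek 6.6 and RMA, which corrects background and draws array distributions together. Per the labels' protocols, RNA was isolated with a PicoPure kit and 2 ng went into WT Pico labelling. The genome build, filters and any batch correction before deposit are not given in the sources used here. Probe sets were named from the platform annotation (23521 with 1 symbol, 1814 with several, 16010 with none). All 41345 were fitted in R 4.3.3 by limma 3.58.1 (linear models moderated by eBayes, genotype and batch as terms, two-sided, Benjamini-Hochberg, threshold 0.05), a script checked on simulated data. The fit had 8 residual degrees of freedom. The number of arrays limits the precision.

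The members, role groups and lists were chosen with earlier results of these data known. Each knockout array, with the lowest, median and highest wild-type array, is given for members with an unadjusted p under 0.05 or groups without overlap, for at least 3 per role by smallest p, and for core members (B2m, Irf7, Isg15, Ciita, H2-Ab1). H2-Aa was added after its values were seen. From each list of other pathway genes the 4 with the smallest p are named. Dendritic and T cell genes beside class II were named after their values were seen. Lists are described by counts and medians, without a test. Figures used Python 3.11.15 and matplotlib 3.10.9.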

Additional observations from a re-analysis of the deposited data

Results flagged for a closer look

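In 9 of 80 sets, each being 1 member in 1 genotype, an array stood apart from the others of its genotype by more than Dixon's 95% critical gap. Chance flags about 1 set in 20. In knockout replicate 4, Bst2 read 5.28 with the next array at 4.30, and Irf9 read 5.42 with the next at 4.91. That array also had the highest thick ascending limb and collecting duct marker means, and the part of these in both values was not tested. In knockout replicate 5, Ifit1 read 3.84 while the other 4 all read 3.56. In wild-type replicate 5, Ifnar2 read 4.51 with the next at 5.21, and Irf1 read 4.44 with the next at 3.82. The remaining 4 were single genes in single wild-type arrays: Oasl1 at 4.20 in replicate 1 (next 4.67), Irf3 at 6.19 in replicate 2 (next 5.53), Tap1 at 4.70 in replicate 4 (next 5.26) and Tap2 at 3.42 in replicate 6 (next 3.80).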

How the results depend on the processing

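No member passed the adjusted threshold under any of the 22 other settings run, which were 11 changes of model, normalization or filter and 11 fits without 1 array. The number of members at an unadjusted p under 0.05 (5) was 2 within batch 1 alone, 3 with dim probe sets left out and 2 under the replicate block. It was 7 with 1-symbol probe sets alone, array weights, batch as a random block, the mean over a gene's probe sets, no batch term or quantile normalization. Under the remaining changes it was 5, and it ran from 3 to 6 without single arrays. The shares of all genes at that p under these settings are not given, so whether all genes moved alike is not known. With the replicate block the class I median was -0.05 and the class II median -0.29. The replicate numbers do not pair the arrays: deviations of same-numbered arrays correlated at -0.181 to 0.0118. The class II median was below 0 in all 22 settings, between -0.58 and -0.29, but not every setting could move it. It stayed at -0.44 with 1-symbol probe sets alone, another eBayes prior, dim probe sets left out or the mean over a gene's probe sets. Those settings do not change the fitted differences of the 4 class II genes, each with 1 probe set. The fit without wild-type replicate 6 repeats the value within batch 1 alone, -0.33. The interferon-induced median stayed between -0.03 and 0.08. Signals below the median of every array (8 of the 40 members) may be near background, which no value used here measures.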

Other observations

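In 7 of the 40 members (17.5%) at least 4 of the 11 arrays held the same value to 2 decimals, beside 16.4% of all genes. They were Ifit1, Oasl1, Bst2, Ifnar1, Irf7, Irf9 and Tap2. For these genes the spread between arrays rests on fewer distinct values than there are arrays.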
